A study of Mus musculus with 4 samples.

Results

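The 51 V, D and J gene segments of the mouse T cell receptor beta locus were described in 4 RNA-seq libraries made from inflammation-experienced Treg, the regulatory T cells that restrain immune responses. They were taken as every gene whose symbol begins Trbv, Trbd or Trbj, out of 55536 genes in the GENCODE M21 gene tables. They comprise 35 Trbv segments, of which 22 are annotated as genes and 13 as pseudogenes, 2 Trbd segments and 14 Trbj segments, of which 13 are annotated as genes and Trbj2-6 as a pseudogene. The RNA was polyA-selected and came from a male adult Foxp3CreERT2 x Rosa26YFP mouse of 6 months. In this kind of strain, Foxp3, the lineage-defining gene of Treg, drives a Cre recombinase that a drug activates, and Cre switches on a fluorescent protein at Rosa26. The labels describe primary cells that originated from a bone marrow hematopoietic cell. All 4 libraries are technical replicates, numbered 1 to 4, of biological replicate 1. There was therefore 1 group and no comparison between conditions, and every SD and p-value below measures only the spread between libraries, which may be technical.

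A functional beta chain gene is assembled in the thymus by joining 1 V, 1 D and 1 J segment, which the RAG recombinase cuts at signal sequences beside each segment. The V segment encodes most of the variable domain and its contacts with the major histocompatibility complex. The D and J segments complete the loop that meets the peptide, and splicing joins the assembled exon to a constant region, Trbc1 or Trbc2. Treg carry such alpha-beta receptors, and a population of them holds many clones. In these bulk samples, fewer cells that use a segment and less RNA per cell cannot be told apart. The tables also do not tell rearranged from unrearranged transcripts.

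The Trbj segments are short and are set side by side below with and without a conserved stretch, so all 14 are shown as their transcripts on the plus strand. Capitals mark the pattern TTNGG, then 4 bases of any kind, then GG, where N is any base. It codes the phenylalanine and glycines that open the last framework stretch of the variable domain.
Trbj1-1: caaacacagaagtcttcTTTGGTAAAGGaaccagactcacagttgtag
Trbj1-2: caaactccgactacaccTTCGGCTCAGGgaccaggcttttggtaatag
Trbj1-3: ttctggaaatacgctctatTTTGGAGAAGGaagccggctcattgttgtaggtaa
Trbj1-4: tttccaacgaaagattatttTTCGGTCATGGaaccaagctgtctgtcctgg
Trbj1-5: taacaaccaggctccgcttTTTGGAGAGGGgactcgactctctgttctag
Trbj1-6: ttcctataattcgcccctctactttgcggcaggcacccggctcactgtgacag
Trbj1-7: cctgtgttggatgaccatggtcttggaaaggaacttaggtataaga
Trbj2-1: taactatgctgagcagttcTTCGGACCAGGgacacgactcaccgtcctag
Trbj2-2: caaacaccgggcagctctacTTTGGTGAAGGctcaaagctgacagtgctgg
Trbj2-3: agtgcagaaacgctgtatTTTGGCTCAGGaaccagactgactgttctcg
Trbj2-4: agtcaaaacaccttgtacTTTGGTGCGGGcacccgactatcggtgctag
Trbj2-5: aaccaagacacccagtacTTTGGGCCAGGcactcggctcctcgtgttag
Trbj2-6: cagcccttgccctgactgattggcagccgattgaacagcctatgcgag
Trbj2-7: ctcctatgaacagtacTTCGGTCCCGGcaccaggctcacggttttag
The pattern was present in 11 of the 13 Trbj genes and absent, in these letters, from Trbj1-6, Trbj1-7 and the pseudogene Trbj2-6. It was found in the first 50 bases of 1.22% of all 141672 M21 transcripts at least that long on the transcript strand, and of 0.907% on the other strand. No Trbj segment held it on the other strand. The 2 D segments are shown because they are the shortest features counted here. Capitals mark the 5 bases at which both begin.
Trbd1: GGGACagggggc
Trbd2: GGGACtgggggggc
For the Trbv segments on which the results below turn, the last 40 bases of the leading transcript are shown, since this end is joined to D and J. Capitals mark the pattern TGTGCNAGC, which contains the codon of the conserved cysteine that opens the junction loop.
Trbv13-1: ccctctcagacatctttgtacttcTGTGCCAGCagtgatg
Trbv13-2: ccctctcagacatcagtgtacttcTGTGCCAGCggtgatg
Trbv13-3: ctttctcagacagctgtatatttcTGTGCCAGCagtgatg
Trbv12-1: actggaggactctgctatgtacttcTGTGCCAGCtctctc
Trbv12-2: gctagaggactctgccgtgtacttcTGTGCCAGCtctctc
Trbv3: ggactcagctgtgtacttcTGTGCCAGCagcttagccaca
Trbv24: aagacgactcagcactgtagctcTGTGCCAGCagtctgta
Trbv30: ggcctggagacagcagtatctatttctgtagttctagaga
The pattern was found within the last 30 bases in 17 of 22 Trbv genes and 4 of 13 Trbv pseudogenes, against 0.0466% of all those transcripts on the transcript strand and 0.0233% on the other. Trbv30 lacked these letters. Sequences, coordinates and strands were taken from GENCODE M21 on mm10.

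All members lie on chromosome 6 within 667.2 kb. Trbv1 (chr6:40891229-40891885) stands alone, 155.5 kb upstream of Trbv2. The segments from Trbv2 to Trbv30 follow over 234.7 kb on the plus strand. A gap of 251.2 kb then leads to Trbd1, and the 2 D-J-C clusters together span 15.2 kb. Trbv31 (chr6:41557691-41558452) lies 9.34 kb beyond Trbc2 on the minus strand, so it joins by inversion. Each of the 22 Trbv genes has 2 exons, whereas 11 of the 13 pseudogenes have 1. The exceptions among the pseudogenes are Trbv12-3 and Trbv24.

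Total expected counts per library were 9284432, 9341328 and 9325636 for libraries 1 to 3, and 6648385 for library 4, the shallowest. The 8 T cell markers were Cd3d, Cd3e, Cd3g, Cd247, Cd4, Trac, Trbc1 and Trbc2. They summed to 13112.52 to 14085.21 TPM (transcript abundance per unit of length, on a fixed total per library). Trac, Trbc1 and Trbc2 averaged 3084, 2443 and 4047 TPM of this, so the sum includes the beta constant genes used below. The 4 Treg markers Foxp3, Il2ra, Ctla4 and Ikzf2 summed to 654.61 to 955.08 TPM. Foxp3 was the lowest of them, at 20.3, 21.69, 32.81 and 36.4 TPM in libraries 1 to 4, and Ikzf2 had the highest mean, 412.2 TPM. Trdc, the constant region of the delta chain, was at 2.5 to 3.2 TPM, and the CD8 markers Cd8a and Cd8b1 summed to 10.07 to 17.29 TPM. None of the 5 B cell markers was at 0, and their sum was 177.31, 124.53, 79.01 and 149.40 TPM in libraries 1 to 4. Library 1 stood apart in 4 erythroid genes, of which the 3 globin genes made up nearly all. They summed to 965.20 TPM there, against 3.55 to 36.30 TPM in the other libraries. The part of these cell types in the spread of the segments between libraries was not tested.

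Of the 15 listed V(D)J recombination and thymocyte genes, those specific to recombining cells were at or near 0. Rag1, the catalytic subunit of the recombinase, and Ptcra, the surrogate alpha chain of immature thymocytes, were at 0 in every library. Rag2, its partner subunit, reached 0.08 TPM in library 2 and was 0 elsewhere, and Dntt, which adds bases at junctions, was at 0.00 to 0.48 TPM. General repair genes of the list were measured at higher levels, such as Xrcc6, which binds DNA ends, at 46.7 ± 6.09 TPM (SD, n = 4). Of the 11 genes of the list that could be tested, 8 differed between libraries in the test described below, which called 68.6% of all genes tested. The protein-coding genes that lie among the segments, many of them trypsinogen genes, were at or near 0. Of 14 protein-coding genes between the outermost members, 12 averaged under 1 TPM and the highest, Prss2, averaged 2.22 TPM.

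Trbv transcripts together reached 3180.47, 3407.99, 3333.28 and 3169.31 TPM in libraries 1 to 4, against 6303.92, 6839.58, 6615.53 and 6199.43 TPM for Trbc1 and Trbc2 together. Per unit of length, Trbv thus stood at 0.504 ± 0.0053 of Trbc (SD, n = 4), and this ratio varied little between libraries. In expected counts the ratio of Trbv to Trbc was 0.218 ± 0.00358. Trbc2 held 63.3% ± 0.309 of the Trbc counts. The median Trbv gene averaged 132.8 TPM over 22 genes, against 14.1 TPM for the 13034 genes with a mean expected count of at least 10. Of the 22 Trbv genes, 21 were at 10 TPM or more in all libraries, against 12.1% of all 55536 genes. The exception was Trbv21, at 4.56, 3.85, 3.14 and 2.99 TPM.

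**Figure D1:**
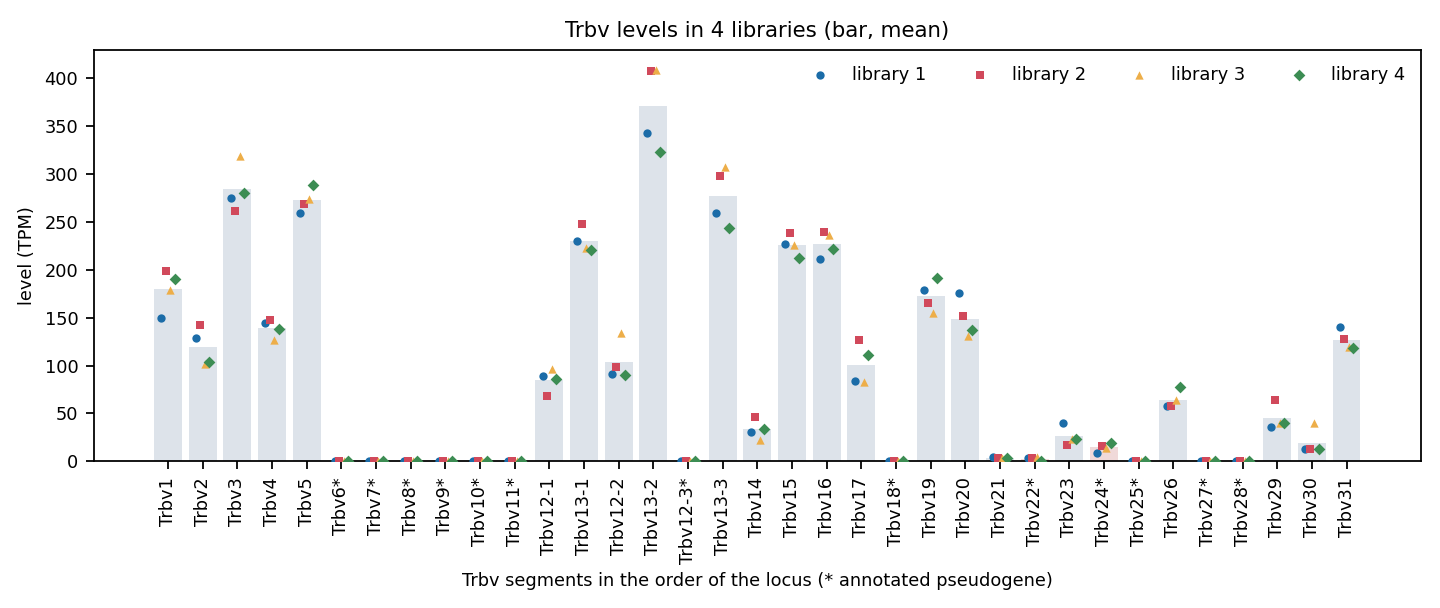
Level of each Trbv segment in TPM on the vertical axis, in the order of the locus from Trbv1 to Trbv31. Points are libraries 1 to 4, bars their mean, and asterisks mark annotated pseudogenes. Trbv13-2 is the highest bar, at 370.7 TPM, and the pseudogenes sit at or near 0 apart from Trbv24.

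By level per length, Trbv13-2 (chr6:41121396-41121832) led, with 342.44, 407.92, 408.92 and 323.44 TPM in libraries 1 to 4. Its lowest library was above the highest library of every other segment. Trbv3 (chr6:41048290-41048828) followed with 274.65, 261.11, 319.12 and 280.57 TPM, Trbv13-3 with 259.70, 297.84, 307.08 and 243.92 TPM, and Trbv5 with 259.67, 268.21, 273.92 and 288.77 TPM. The ranges of Trbv3, Trbv13-3 and Trbv5 overlapped, so these libraries do not order them. Below them, Trbv13-1 averaged 230.3 ± 12.2 TPM, Trbv16 averaged 227.0 ± 13.1 TPM and Trbv15 averaged 226.2 ± 10.5 TPM (SD, n = 4 each). These 3 means lay within 1 SD of each other.

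The middle of the order ran from Trbv1, at 179.5 ± 21.2 TPM, through Trbv19 at 172.7 ± 15.9, Trbv20 at 148.8 ± 19.6, Trbv4 at 139.2 ± 9.13 and Trbv31 at 126.3 ± 9.94 to Trbv2 at 119.3 ± 19.6 TPM. Trbv12-2, Trbv17 and Trbv12-1 averaged 103.6 ± 20.3, 100.9 ± 21.7 and 84.9 ± 11.9 TPM. At the low end, Trbv26 averaged 64.5 ± 9.39 TPM and Trbv29 averaged 45.0 ± 12.7 TPM. Trbv14, Trbv23 and Trbv30, each under 1% of the Trbv counts and named here after their values were seen, averaged 33.5, 26.1 and 19.4 TPM. In 17 of the 21 pairs of neighbours in this order the library ranges overlapped.

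The repertoire was spread over many segments. The 5 segments with the most counts, Trbv3, Trbv19, Trbv13-2, Trbv5 and Trbv16, held 43.9% ± 1.44 of the Trbv expected counts. The exponential of the Shannon index, which is the number of equally used segments that would give the same evenness, was 17.09, 17.24, 17.01 and 17.03 in libraries 1 to 4. The 18 genes with a mean share of at least 1% ranged in mean share from 1.13% for Trbv29 to 11.1% for Trbv3.

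Levels per length and shares of counts did not rank the segments alike. Trbv19 and Trbv2 have the longest annotated transcripts, of 566 and 560 bases, against a median of 372 over the Trbv genes. TPM here divides by the effective length given with the counts, which is shorter than the transcript. In library 1 it was 397.97 for Trbv19, 391.97 for Trbv2 and 172.78 for Trbv13-2. Trbv19 held 9.44% ± 1.07 of the Trbv counts and 5.29% ± 0.655 of the Trbv TPM. Trbv2 held 6.40% ± 0.971 of the counts and 3.64% ± 0.555 of the TPM. Trbv13-2, whose transcript has 340 bases, held 8.70% ± 0.781 of the counts and 11.3% ± 0.978 of the TPM. Its place relative to Trbv3 depended on this choice, since Trbv3 held 11.1% ± 1.03 of the counts and 8.68% ± 0.789 of the TPM.

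**Figure D2:**
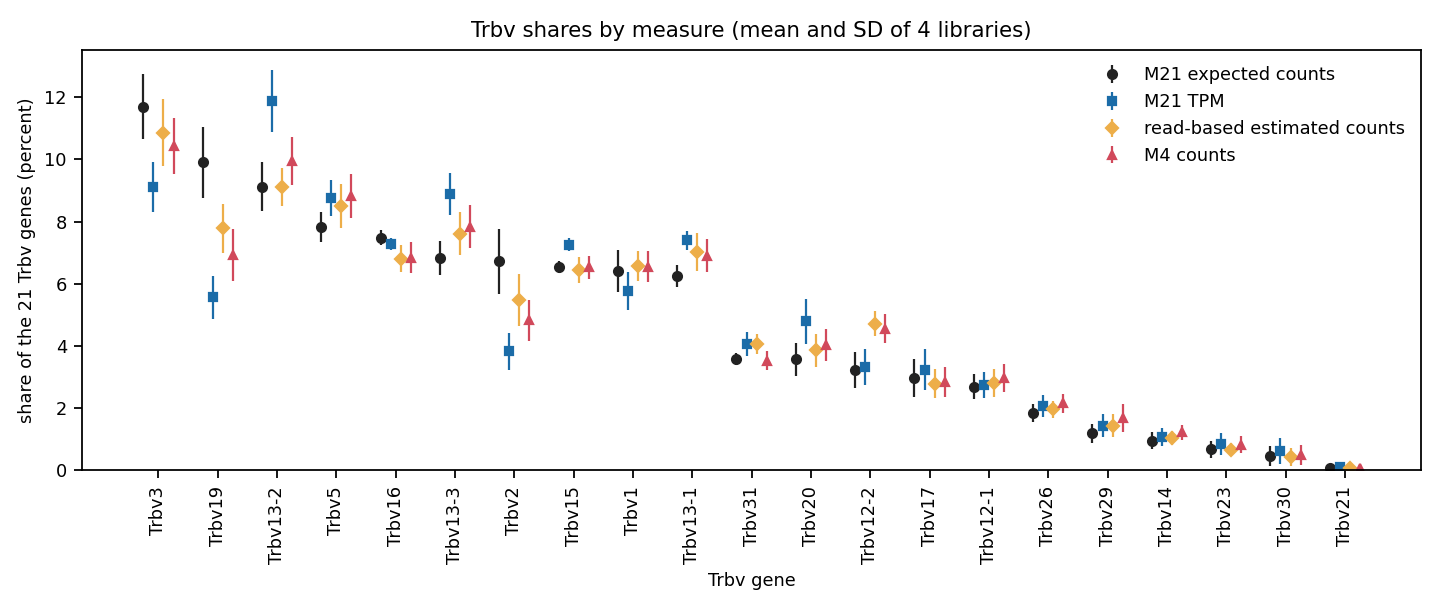
Mean share of each of the 21 Trbv genes present in all tables, in percent, with the SD of 4 libraries as bars, by M21 expected counts, M21 TPM, read-based estimated counts and M4 counts. Trbv3 leads in the 3 kinds of counts, and Trbv13-2 leads in TPM with 11.9%.

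The count tables also differed in how many reads they gave a segment. Over the Trbv genes with a mean expected count of at least 10, the read-based table gave a median of 2.21 times the M21 expected counts, and 3.48 times came from M4. Over all genes with that mean the medians were 1.31 and 1.15. For the constant genes the M4 count was 0.995 times the M21 expected count for Trbc1 and 0.783 times for Trbc2. The ratio of M4 to M21 counts ran from 2.23 for Trbv19 and 2.28 for Trbv2 to 4.45 for Trbv29 and 4.49 for Trbv12-2. Across 20 Trbv genes its Spearman rho with transcript length was -0.62, a description of segments that share their libraries. The number of Trbv reads, and its ratio to Trbc, therefore differed by table. The M4 counts gave 0.764 ± 0.0177 Trbv counts per Trbc count, over the 21 Trbv genes with an M4 row.

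The Trbv12 and Trbv13 segments alternate in the locus and resemble their own kind. Over the last 280 bases, Trbv13-2 and Trbv13-3 were 91.4% identical, Trbv12-1 and Trbv12-2 were 88.9%, and Trbv13-1 and Trbv13-2 were 88.2%. The median over all 231 pairs of Trbv genes was 49.8%. The M21 expected counts of the Trbv12 and Trbv13 genes were whole numbers in every library. In the read-based table, those of Trbv13-2 and Trbv13-3 were fractional, as was Trbv12-2 in library 2. How reads were split within these groups was not tested, so the levels of single Trbv12 and Trbv13 members carry that doubt. Trbv4 and Trbv5 overlap the lincRNA 5830405F06Rik, which averaged 4.25 TPM, and their expected counts were fractional, except for Trbv4 in library 2. Trbv4 had no M4 count that could be matched by its identifier.

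Along the locus the levels were uneven. The 4 genes from Trbv2 to Trbv5 held 24.9% ± 0.725 of the Trbv TPM, and the 11 genes from Trbv12-1 to Trbv20 held 60.4% ± 0.933. The 5 genes from Trbv21 to Trbv30, the nearest to D on the plus strand, held 4.85% ± 0.253 of it. Trbv1, the most distant, held 5.48% ± 0.578 and the inverted Trbv31 held 3.86% ± 0.361. These blocks were drawn after the values were seen. Across the 20 Trbv genes from Trbv2 to Trbv30, Spearman's rho of mean TPM with position toward D was -0.59, again a description.

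**Figure D3:**
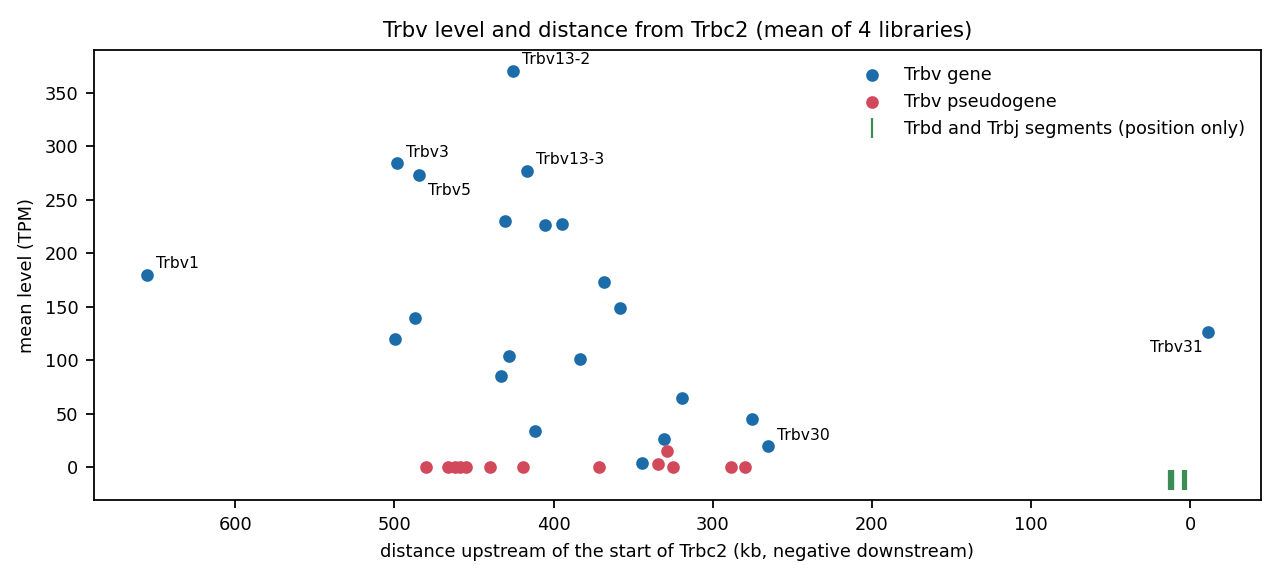
Mean TPM of 4 libraries for each Trbv segment against its distance upstream of the start of Trbc2 in kb, with genes in blue, pseudogenes in red and D and J positions as green ticks. The Trbv genes nearest to the D and J clusters on the plus strand, which end with Trbv30 at 19.4 TPM, lie low, and Trbv31 on the far side reaches 126.3 TPM.

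The pseudogenes had few counts. They held 0.407% ± 0.0926 of the Trbv expected counts. Trbv24 accounted for most of it, with 11, 22, 19 and 19 expected counts, or 8.67, 15.94, 14.19 and 19.63 TPM, in libraries 1 to 4. It has 2 exons like the genes and holds the pattern shown in capitals above. Trbv12-3 shares both traits, and Trbv18 and Trbv22 hold the pattern with 1 exon. Trbv22 had 3, 3, 4 and 0 expected counts, and Trbv12-3 had 1 count in library 2 only. The other 10 were at 0 in every M21 table, namely Trbv6, Trbv7, Trbv8, Trbv9, Trbv10, Trbv11, Trbv18, Trbv25, Trbv27 and Trbv28. A count of 0 allows up to 3 counts in a library, which is 0.451 CPM (counts scaled to a fixed library total) in the shallowest. In the read-based table, Trbv6 reached 1 estimated count in library 4, Trbv25 1 in library 2 and Trbv8 0.58 in library 3, and 7 stayed at 0. Intervals and limits of this kind cover counting error only.

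Whether a segment's share of all counts differed between the libraries was tested by a likelihood ratio of a Poisson model in every gene that averaged 10 or more expected counts, and p-values were adjusted over all of them by Benjamini-Hochberg. Of the 22 Trbv segments tested, which are 21 genes and Trbv24, 14 were called at an adjusted p under 0.05, while 68.6% of all 13034 genes were called. The median ratio of the highest to the lowest library was 1.34 for the tested Trbv segments and 1.49 for all tested genes. The segments were thus called about as often as other genes. Among the 14 called, 9 were highest in library 2 by scaled CPM, namely Trbv1, Trbv2, Trbv13-1, Trbv13-2, Trbv13-3, Trbv14, Trbv16, Trbv17 and Trbv29. With total-count scaling, Trbv13-3 was instead highest in library 3, at 42.36 CPM against 42.29 in library 2. How many of all called genes were highest in library 2 was not counted. Trbv counts were also the largest percentage of all expected counts in library 2, with 0.0544%, 0.0629%, 0.0595% and 0.0579% in libraries 1 to 4. As shares of the Trbv counts, only Trbv2, Trbv14, Trbv17 and Trbv29 of these 9 were highest in library 2. By that measure Trbv13-2, Trbv13-3 and Trbv16 were highest in library 3, Trbv1 in library 4 and Trbv13-1 in library 1. Without library 1, which held the globin transcripts, 12 of 22 were called beside 54% of all genes. Without library 2 it was 10 beside 55%, without library 3 it was 10 beside 60.6% and without library 4 it was 14 beside 62%. The share of all genes called was thus lower in each run with 3 libraries. With all libraries, scaling by total counts called 13 beside 69.2% of genes, of which 12 were among the 14, and testing without a count minimum called 14 of 25 segments beside 37.3% of genes.

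The 8 segments that missed the threshold were Trbv3, Trbv4, Trbv5, Trbv12-1, Trbv15, Trbv24, Trbv26 and Trbv31. A missed threshold does not show that their shares were equal. Trbv3 ranged 1.17-fold between libraries with an adjusted p of 0.0584 in the Poisson model fitted to each gene. It passed the threshold in the same model with total-count scaling (adjusted p = 0.00294), without library 2 (adjusted p = 0.0335) and without library 4 (adjusted p = 0.0272). Trbv4 passed it without library 1, with an adjusted p of 0.0453 in that model.

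Trbv30 (chr6:41281376-41281990), the plus-strand segment nearest to D, had the widest span. It had 15, 16, 50 and 11 expected counts in libraries 1 to 4, or 12.65, 12.43, 40.03 and 12.38 TPM. Library 3 stood above the others, which lay together. Scaled CPM differed 3.18-fold between the highest and lowest library, with an adjusted p of 9.25e-06 in the Poisson model fitted to each gene. The read-based table gave 29, 30, 103 and 22 estimated counts and M4 counts were 54, 53, 168 and 37. Without library 3 the span was 1.09-fold and the adjusted p 0.968.

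Other low segments varied in other libraries. Trbv14 had 43, 72, 34 and 37 expected counts and spanned 2.28-fold (adjusted p = 0.000949, Poisson model fitted to each gene). Its span without library 2 was 1.56-fold and the adjusted p 0.227 in that model. Trbv23 had 51, 24, 31 and 23, with library 1 the highest, and spanned 2.08-fold (adjusted p = 0.0183, same model). Without library 1 its span was 1.27-fold and the adjusted p 0.733, and without library 2 the adjusted p was 0.0505 in that model. Trbv29 had 47, 91, 56 and 40, and spanned 1.98-fold (adjusted p = 0.000569, same model), and without library 2 the span was 1.15-fold and the adjusted p 0.796. Among the larger segments, Trbv17 spanned 1.71-fold and Trbv2 1.55-fold, with adjusted p-values of 1.94e-06 and 2.09e-08 in that model, and both passed the threshold without any 1 library. Trbv2 was highest in libraries 1 and 2, with 357 and 434 expected counts, and had 301 and 220 in libraries 3 and 4.

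**Figure D4:**
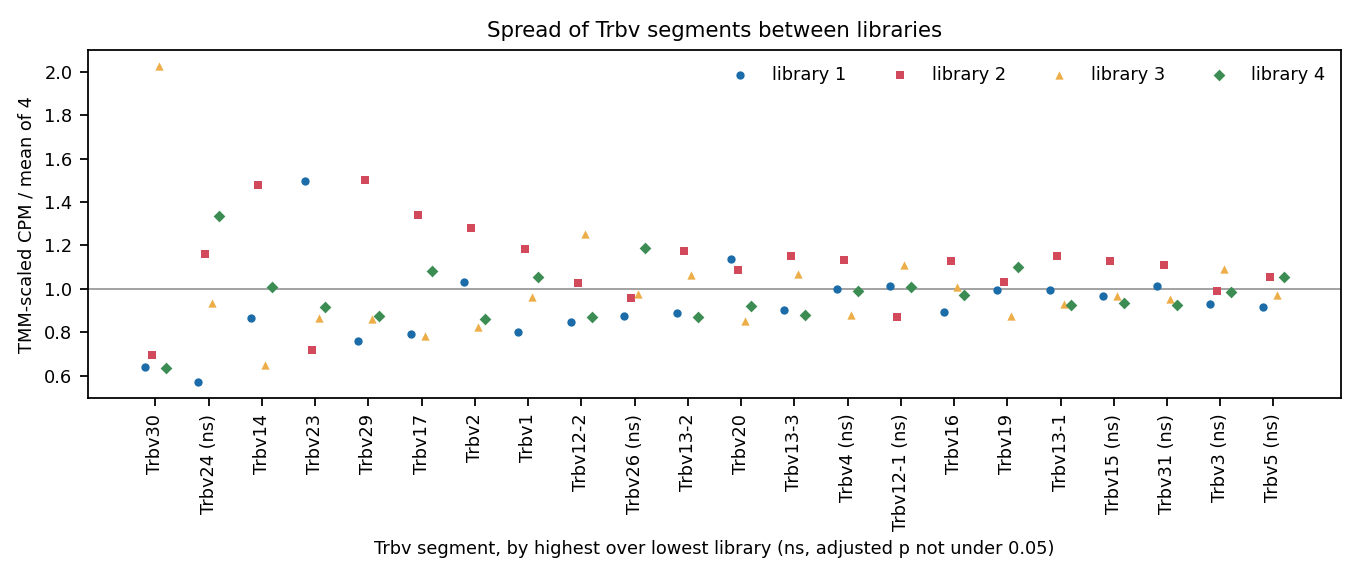
Scaled CPM of each tested Trbv segment divided by its mean of 4 libraries, ordered by the ratio of highest to lowest library. Points are libraries 1 to 4, and ns marks an adjusted p that is not under 0.05. Trbv30 in library 3 is the farthest point, and segments on the right, such as Trbv5, stay near 1.

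The libraries were also compared in pairs as compositions. Moving from 1 library to another shifted 5.35% to 7.14% of the Trbv counts between segments, with libraries 1 and 4 the closest and libraries 1 and 3 the farthest apart. In the read-based table the shift was 5.39% to 7.53%, and libraries 2 and 4 were the closest. How much of these shifts counting error alone would give was not tested.

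The D and J segments had no usable values in the M21 gene tables. Both Trbd and 14 Trbj segments had an effective length of 0 and an expected count of 0 in each library, as 2452 genes of that table had an effective length of 0. A count of 0 at an effective length of 0 gives no level. Their counts were therefore read from the M4 table, where 13 Trbj and both Trbd segments had a row, and from the read-based table, which estimated all 14 Trbj segments. Trbd1 (chr6:41533201-41533212) had 131, 176, 121 and 97 M4 counts and Trbd2 (chr6:41542163-41542176) had 165, 154, 147 and 130. Trbd2 was above Trbd1 in libraries 1, 3 and 4 and below it in library 2. Both were at 0 in the read-based table.

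Trbj segments held 3943, 4721, 4196 and 3042 M4 counts in libraries 1 to 4. Trbj2-7, the last J segment before Trbc2, led with 15.5%, 15.1%, 14.9% and 15.5% of them. For library 1 the Wilson 95% interval of that share was 14.4% to 16.7%. Trbj2-5 followed with 10.8% ± 0.774, Trbj2-1 with 9.25% ± 0.739, Trbj2-4 with 8.63% ± 0.719 and Trbj2-3 with 8.45% ± 0.845. Trbj2-2 stood apart from the rest of its cluster at 5.53% ± 0.469. The 7 segments of the upstream cluster lay closer together. Trbj1-6 held 6.86% ± 0.926, Trbj1-1 held 6.73% ± 0.179, Trbj1-4 held 6.61% ± 0.658, Trbj1-2 held 6.11% ± 0.595, Trbj1-3 held 5.56% ± 0.305, Trbj1-5 held 5.12% ± 0.122 and Trbj1-7 held 5.08% ± 0.318 (SD, n = 4 each).

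The share of the downstream Trbj2 cluster depended on the table. In M4 counts it was 56.6%, 57.1%, 60.4% and 57.7% in libraries 1 to 4, over 13 segments. In the read-based table it was 45.9%, 48.4%, 51.2% and 48.9% over 14 segments, and 45.2% ± 2.22 over the 13 segments of the M4 table. The Trbj2 cluster held the larger part in M4 counts in every library and, over the 13 shared segments, the smaller part in every library of the read-based table. The data do not decide between the tables. Trbj2-7 led in both, with 10.9% ± 0.508 of the read-based counts, and Trbj1-6 came next there with 9.09% ± 1.24. The read-based counts of Trbj were fewer, at 1275, 1508, 1237 and 917 in libraries 1 to 4.

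**Figure D5:**
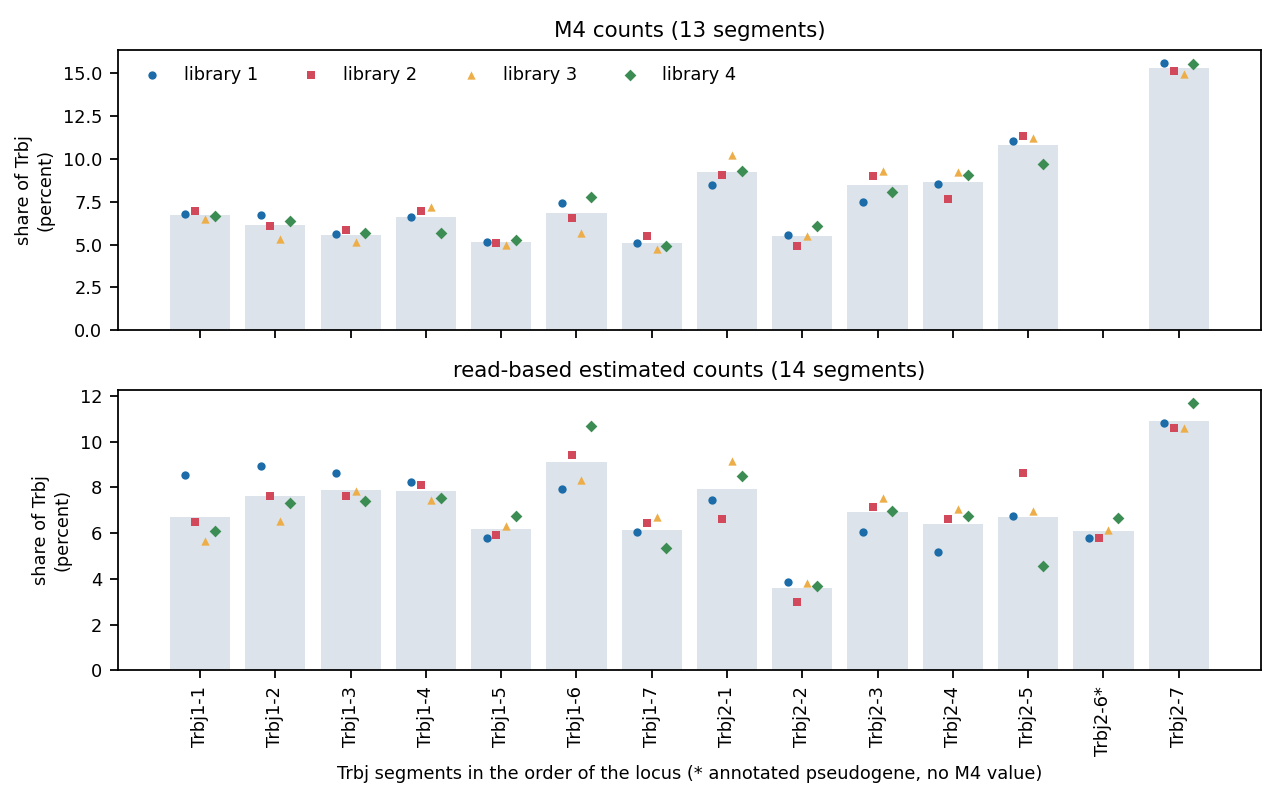
Share of each Trbj segment in percent, in the order of the locus, by M4 counts over 13 segments in the upper panel and by read-based estimated counts over 14 segments in the lower one. Points are libraries 1 to 4 and bars their mean. Trbj2-7 is the highest bar in both panels, and the bars of Trbj2-3, Trbj2-4 and Trbj2-5 stand above every Trbj1 bar in the upper panel alone.

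Segments without the pattern marked in the sequences above also had counts. Trbj1-7 had 201, 260, 200 and 150 M4 counts, the lowest of the 13 segments in libraries 1, 3 and 4, and Trbj1-6 was the highest of the Trbj1 segments in mean share. The pseudogene Trbj2-6 had 74, 87, 76 and 61 read-based counts. Those of Trbj2-6 were 6.09% ± 0.41 of the Trbj counts of that table, above the 3.58% ± 0.404 of Trbj2-2, which holds the pattern. Counts at a J segment include any transcript that covers it, so they do not measure its use in receptors alone.

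In the test between libraries on M4 counts, 10 of 13 Trbj segments, 1 of 2 Trbd segments and 19 of 21 Trbv genes were called, while 78.4% of all 10910 genes tested were called. In the read-based table it was 5 of 14 Trbj and 21 of 22 Trbv segments, while 62.5% of 17329 genes were called. Trbj2-5 was called in both, with a span of 1.36-fold in M4 counts and 2.40-fold in read-based counts. It was highest in library 2 and lowest in library 4 in both tables. Trbj2-7 spanned 1.20-fold in M4 counts, with an adjusted p of 0.00344 in the Poisson model fitted to each gene. Its span in read-based counts was 1.37-fold, with an adjusted p of 0.0815 in the same model.

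The read-based table also separates transcripts of a segment. Among the Trbv genes with 2 transcripts, Trbv13-1, Trbv23, Trbv26 and Trbv30 had all their counts on 1 transcript in each library. Trbv21, with 7 to 15 estimated counts a library, was divided in libraries 2 and 4, with 2.53 and 2.6 on its transcript of 381 bases and 4.47 and 4.4 on that of 290 bases. Trbv31 was divided, with 185.43, 289.56, 273.54 and 164.32 estimated counts on its transcript of 416 bases and 237.57, 228.44, 165.46 and 139.68 on that of 334 bases. The shorter transcript held the larger part in library 1 and the smaller part in the other libraries.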

How the data were processed

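PolyA RNA-seq was measured in 4 technical libraries of 1 biological replicate. According to the submitters' notes deposited with the tables, the expected counts and TPM per gene came from a transcriptome alignment (mm10, GENCODE M21). The deposited estimated counts and TPM per transcript came from the reads and an index (M21), and the deposited whole-number counts per gene came from a genome alignment (GENCODE M4). Programs and strand settings: not given in the sources used here. Rows naming no gene, mostly the phiX control, held 0.133% to 0.504% of expected counts and were left out.

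Transcript estimates were summed per gene. M4 rows were matched by identifier, for 36 of 51 segments. The planned source for D and J segments, the M21 expected counts, was 0 throughout, so M4 counts took its place. The test between libraries used rounded counts, TMM factors from edgeR 4.0.16, a Poisson likelihood ratio and Benjamini-Hochberg adjustment at 0.05, in R 4.3.3. Its check used counts simulated from the same Poisson model, which cannot show its error rate in these libraries. DESeq2 1.42.0 gave alternative size factors. Shares were computed within Trbv or Trbj, with pandas 2.3.3 and scipy 1.17.1. Segments with a mean share of at least 1%, all D and J segments and all pseudogenes are named. The members and gene lists were chosen with earlier results of these data known. Of the gamma-delta list, 1 of 4 symbols was matched, Trdc. Alternatives were other tables, scalings, count minimums, pseudocounts and leaving out each library.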

Additional observations from a re-analysis of the deposited data

Results flagged for a closer look

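Of 45 values looked at over the 4 libraries, 2 had a library far from the other 3, which lay together. Chance flags about 1 in 20 such groups. The share of Trbv30 in the Trbv expected counts was 0.902% in library 3, with a Wilson 95% interval of 0.685% to 1.19%, against 0.297%, 0.272% and 0.286% in libraries 1, 2 and 4. Library 3 was also the highest for Trbv30 in the read-based and M4 tables. The share of Trbv12-2 was 3.91% in library 3, against 2.77%, 2.83% and 2.75% in libraries 1, 2 and 4. In the read-based table the share of Trbv12-2 was 4.66%, 4.32%, 4.94% and 4.07% in libraries 1 to 4, so library 3 was not set apart there. Without library 3 the adjusted p of Trbv12-2 in the Poisson model fitted to each gene was 0.263, against 0.00213 with it.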

How the results depend on the processing

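No paired analysis was possible because there is 1 group, whose replicate numbers name the libraries themselves. The share of the 5 Trbv segments with the most M21 counts, held fixed, was 41.0% in the read-based table and 40.6% in TPM. The 5 that lead by each measure itself, an alternative added after seeing the data, held 41.8% in the read-based table and 43.8% in TPM. The effective number of Trbv segments was 17.6 in the read-based table, 17.5 in TPM and 15.0 as the inverse Simpson index. It was 16.8 without pseudogenes and 16.97 with a mean count of at least 10. M4 counts gave 16.5 over the 21 Trbv genes with a row there, without Trbv4 and the pseudogenes, so that value covers fewer segments. In place of the M4 counts, the read-based counts, the same over the 13 segments of the M4 table (chosen after seeing the data) and read-based TPM gave a Trbj2 share of 48.6%, 45.2% and 48.6%, and a Trbj2-7 share of 10.9%, 11.6% and 11.5%. Trbv per Trbc was 0.331 in the read-based table, 0.764 in M4 counts over the 21 Trbv genes with an M4 row, and 0.504 in TPM. The pseudogene share was 0.509% in the read-based table and 0.533% in TPM, and the M4 table held no row for a pseudogene. The Trbc2 share was 64.8%, 57.6% and 62.4% in the read-based, M4 and TPM values. The read-based and M4 tables also let J or D segments be tested. The number of segments called between libraries was 26 of 36 and 30 of 36 there, beside 62.5% and 78.4% of all genes. The cause of these shifts was not tested. With total-count scaling it was 13 of 22, with DESeq2 size factors 14 of 22, with no minimum 14 of 25 and with a mean of at least 50 it was 11 of 18, beside 69.2%, 68.6%, 37.3% and 78.4% of all genes.

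Leaving out each library in turn gave 10 to 14 calls beside 54% to 62% of all genes, a 5-segment share of 43.5% to 44.5%, an effective number of 17.04 to 17.12, a Trbj2 share of 57.1% to 58.4%, a Trbj2-7 share of 15.2% to 15.4%, a Trbv to Trbc ratio of 0.216 to 0.219, a pseudogene share of 0.378% to 0.45% and a Trbc2 share of 63.2% to 63.4%. The median log2(TPM + 1) of the Trbv genes was 7.09, and 7.08 with a pseudocount of 0.1. Of the 18 named Trbv shares, 10 moved by more than 1 SD in TPM, 8 in the read-based table and, of the 17 with an M4 row, 13 in M4 counts. The M4 shares were taken over 21 Trbv genes, without Trbv4 and the pseudogenes. They are thus not like for like with the M21 shares, and the 13 include any move from the smaller set. Calls of Trbv13-1, Trbv12-2, Trbv14, Trbv16, Trbv19, Trbv20, Trbv23, Trbv29 and Trbv30 were lost without 1 or more single libraries. None of the 18 shares moved by more than 1 SD when the pseudogenes were left out. Leaving out a single library cannot move a mean by 1 SD between libraries, so that setting was no check of these shares. Trbv shares rest on 3848 to 5875 expected counts a library, so segments under 1% are measured coarsely.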
